A study of Homo sapiens with 36 samples.

Results

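The serine, glycine and one-carbon enzymes were followed as 10 genes in HepG2 cells given docosahexaenoic acid (DHA), propionate (PRO) or protocatechuic acid (PCA). The members were the rows of the count table whose symbol was PHGDH, PSAT1, PSPH, SHMT1, SHMT2, MTHFD1, MTHFD2, GLDC, GNMT or CBS. All 10 were found among 18932 RefSeq genes, and all 10 passed the filter on low counts, which kept 11872 genes at 6 h, 11893 at 24 h and 12046 when both times were fitted together. HepG2 is an established human hepatoma line, DHA is a long-chain n-3 polyunsaturated fatty acid, PCA is a phenolic acid formed from cyanidin glucosides, and PRO belongs to the short-chain fatty acids. The 36 libraries came from 6 treatments at 6 h and 24 h with 3 replicates each: cells with vehicle only (Ctrl), with 50 µM DHA, with 70 µM PRO, with 20 µM PCA, and with DHA at the same dose together with PRO (DHA + PRO) or PCA (DHA + PCA). Cells of every group, Ctrl included, were held during the treatment in serum-free medium with bovine serum albumin or vehicle, and each library held the pooled RNA of replicate wells of 1 independent culture.

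Serine is made from the glycolytic intermediate 3-phosphoglycerate in consecutive steps by PHGDH, PSAT1 and PSPH. The serine hydroxymethyltransferases SHMT1 (cytosol) and SHMT2 (mitochondria) split serine into glycine and a carbon unit carried by folate. MTHFD1 in the cytosol and MTHFD2 in the mitochondria then interconvert the folate-bound units, which are used for purines, thymidylate and methionine. GLDC is the decarboxylating subunit of the mitochondrial glycine cleavage system, GNMT uses glycine to consume S-adenosylmethionine, and CBS joins serine to homocysteine in the first step of transsulfuration. In liver these enzymes link amino acid supply to methyl groups and to cysteine for glutathione.

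Promoter sequences are shown for PHGDH, PSAT1 and MTHFD2, the members with the largest fitted differences between libraries with and without DHA at 24 h. They are the 250 bases before the RefSeq start on GRCh38.p14, all on the plus strand, at chr1:119711684-119711933 for PHGDH, chr9:78296875-78297124 for PSAT1 and chr2:74198365-74198614 for MTHFD2. Capitals mark the letters CCAAT.
PHGDH: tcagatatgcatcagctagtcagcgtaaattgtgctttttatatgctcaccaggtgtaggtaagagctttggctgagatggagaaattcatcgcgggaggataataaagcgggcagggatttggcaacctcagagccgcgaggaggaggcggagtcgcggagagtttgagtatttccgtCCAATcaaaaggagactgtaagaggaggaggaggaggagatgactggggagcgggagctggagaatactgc
PSAT1: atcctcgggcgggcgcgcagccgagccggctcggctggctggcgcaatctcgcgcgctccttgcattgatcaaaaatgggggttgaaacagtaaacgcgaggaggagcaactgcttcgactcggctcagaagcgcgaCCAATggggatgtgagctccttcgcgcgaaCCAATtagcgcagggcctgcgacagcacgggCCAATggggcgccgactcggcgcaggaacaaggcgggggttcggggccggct
MTHFD2: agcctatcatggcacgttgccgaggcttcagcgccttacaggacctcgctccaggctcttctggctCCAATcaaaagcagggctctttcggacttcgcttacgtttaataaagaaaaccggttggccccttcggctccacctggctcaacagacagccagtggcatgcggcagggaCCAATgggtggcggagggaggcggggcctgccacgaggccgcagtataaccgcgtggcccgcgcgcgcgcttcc

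Promoters of 8 members were matched in RefSeq, 10 promoters in all because CBS has 3, in a window from 250 bases before to 50 bases after the start. PSPH and SHMT2 were not among them. CCAAT, read on both strands, occurred in at least 1 promoter of all 8 and in 9 of the 10 promoters, and in 34.6% of the 35116 promoters in the RefSeq table. The 3 matches in PSAT1 began 113, 83 and 52 bases before the start, the 2 in MTHFD2 184 and 74 bases before it, and the match in PHGDH 71 bases before it. The composite element TGATGNAA, the binding sequence of ATF4 with C/EBP proteins, occurred in 3.62% of all promoters and in none of the 10. The E-box CACGTG (7.26% of all promoters) occurred in MTHFD1 alone among the matched members, and TGACNNNGC, the core of the antioxidant response element (13.3%), in MTHFD2 and in 1 promoter of CBS. TCACNCCAC, a sterol regulatory element (1.13%), occurred in none of the 10. These matches describe the letters in the windows.

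All 9 hepatocyte markers were above 0 in every library, with a median albumin (ALB) level of 11660 RPKM (reads per kilobase of counted length, scaled to library size). Of the markers of other cells, KRT5 was at 0 in all 36 libraries, PTPRC was at 0 in 34, and CD68 and ACTA2, with medians of 27.2 and 28.5 RPKM, were present throughout. The remaining markers of endothelium and fibroblasts were near 0, with medians of 0.03 (PECAM1), 0.004 (VWF), 0.15 (COL1A1) and 0.06 RPKM (COL3A1). Total counts ran from 4659744 to 42326734 with a median of 7034006.5. Replicate 2 of DHA + PRO at 24 h was 6.23 times the median of the other 24 h libraries. Fitted member differences of DHA + PRO at 24 h are also given without it. The same holds for the pooled DHA differences of PHGDH, PSAT1, MTHFD2, MTHFD1 and CBS at 24 h. The library numbers in the labels fall into an earlier and a later series, and the later one holds replicate 3 of every group and replicate 2 of DHA + PRO at 6 h.

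All 10 genes were expressed in every library, and their levels per length spanned from PSAT1 to GNMT. Median RPKM over the 36 libraries was 151.9 for PSAT1 (range 121.5 to 200.8), 113.8 for PHGDH (81.7 to 158.0), 102.1 for SHMT2, 64.9 for MTHFD2, 46.6 for MTHFD1, 44.6 for GLDC, 39.0 for PSPH, 38.8 for SHMT1, 30.8 for CBS and 6.50 for GNMT (3.78 to 11.0). Serine synthesis therefore held both the highest member, PSAT1, and a member of middle level, PSPH. In 3 places neighbours in this order did not differ beyond their spread. PHGDH lay above SHMT2 in 23 of 36 libraries, with a mean log2 ratio of RPKM of 0.12 ± 0.26 (SD), MTHFD1 lay above GLDC in 25 (0.05 ± 0.12), and PSPH lay above SHMT1 in 19. PSAT1 lay above PHGDH in 33 libraries, GLDC above PSPH in 32, and SHMT1 above CBS in 35, and each of the other neighbours kept its order in all 36. GNMT had 28 to 321 counts per library, the fewest among the members, so its values carry the largest counting error.

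The genes lie on hg19 at chr1:120254419-120286849 (PHGDH, plus strand), chr9:80911991-80945009 (PSAT1, plus), chr7:56078744-56119268 (PSPH, minus), chr17:18231174-18266877 (SHMT1, minus), chr12:57623356-57628718 (SHMT2, plus), chr14:64854759-64926725 (MTHFD1, plus), chr2:74425690-74442424 (MTHFD2, plus), chr9:6532464-6645692 (GLDC, minus), chr6:42928500-42931618 (GNMT, plus) and chr21:44473301-44496472 (CBS, minus). The library kit does not mark strand, and exons of MTHFD2 overlap those of SLC4A5 on the other strand by 1324 bp. MTHFD2 also overlaps a protein-coding gene without a symbol by 295 bp and MTHFD1 a long non-coding RNA gene by 1556 bp, both on the other strand, and CBS overlaps an entry annotated as an artifact by 2495 bp on the same strand. Other overlaps with protein-coding genes on the other strand were 197 bp for SHMT1 (SMCR8), 178 bp for MTHFD1 (ZBTB25), 33 bp for SHMT2 (NDUFA4L2) and 16 bp for GNMT (PEX6). Reads from the overlapping parts cannot be assigned to either gene. The overlaps were taken over all annotated exons of a member, 6786 bp for CBS and 11443 bp for MTHFD2. The counted lengths were 2353 and 2187 bp, and how much of them lies in an overlap was not measured.

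**Figure D1:**
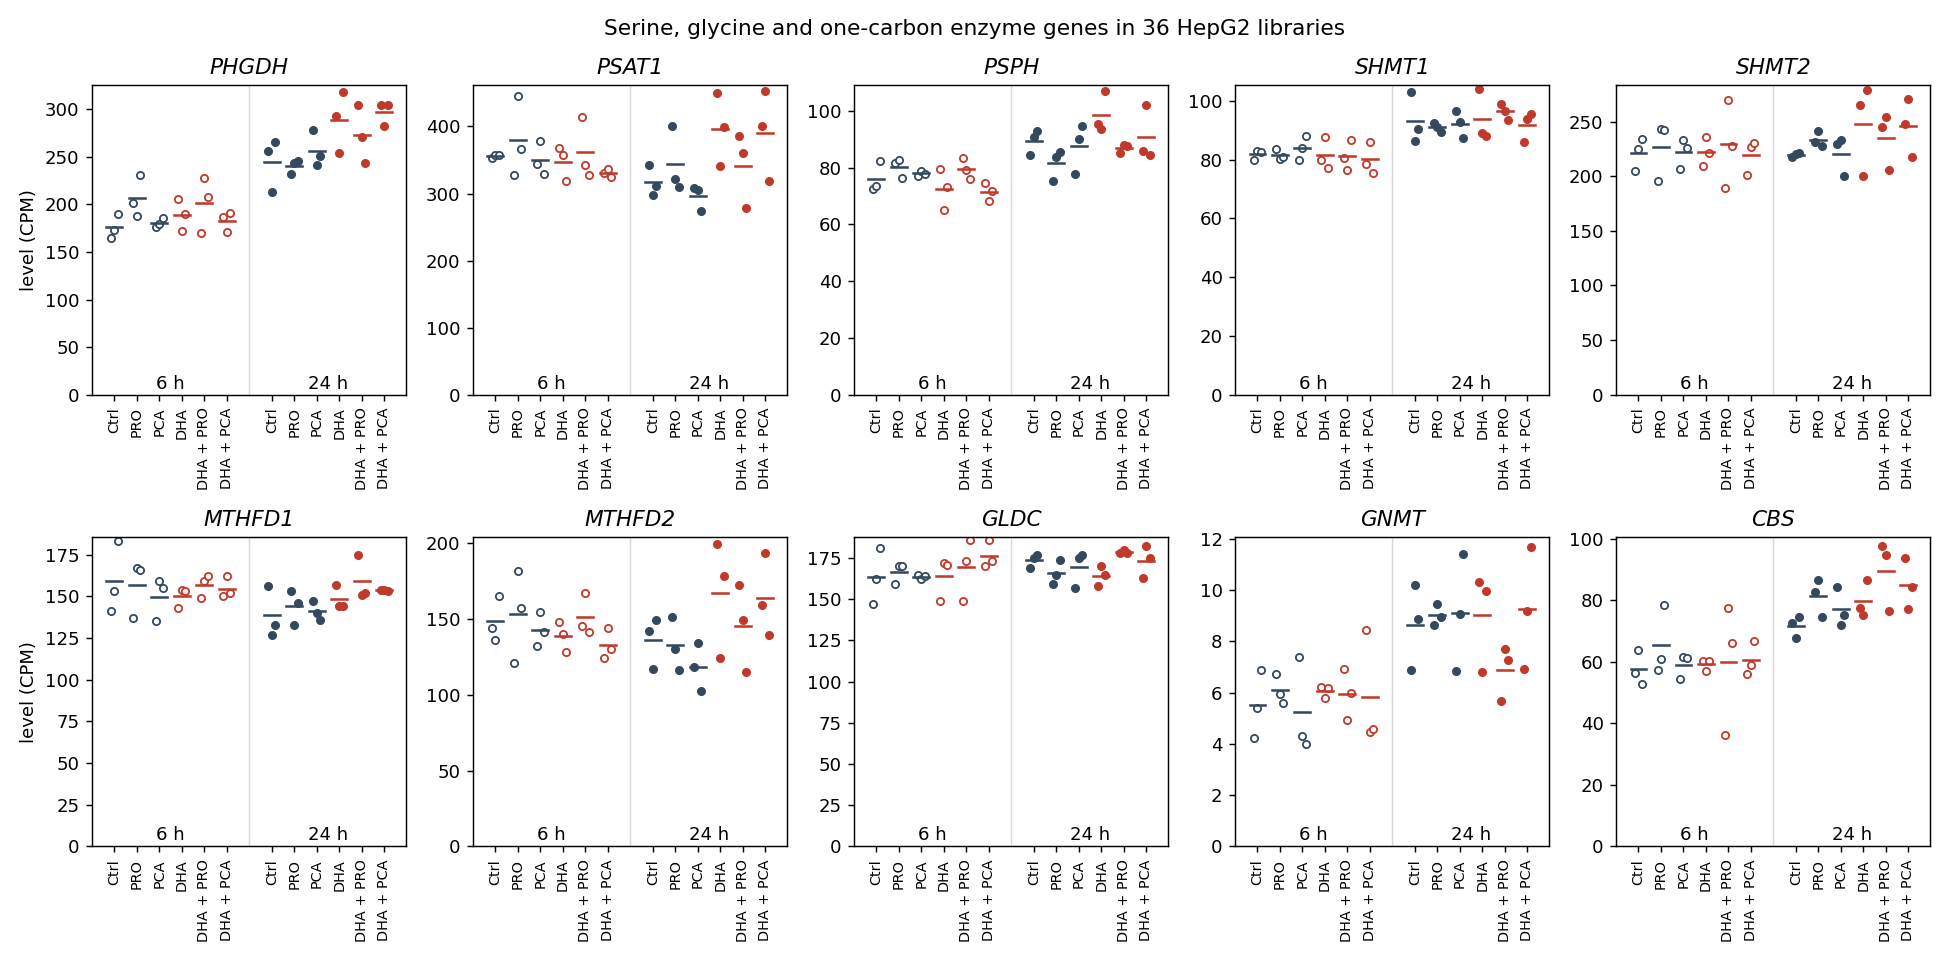
Level of each gene in CPM (counts scaled to library size, linear axis from 0) in each of the 36 libraries. Points are libraries, bars are means of 3, red marks groups with DHA, and filled points mark 24 h. PHGDH, PSPH, SHMT1, GNMT and CBS lay higher at 24 h, and every member except MTHFD1 and GLDC had its highest library in a group with DHA at 24 h.

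Whether DHA moved these genes was asked over 9 libraries with and 9 without it at each time, as the mean of its difference from Ctrl, from PRO and from PCA. At 24 h this mean was above 0 for PHGDH, PSAT1 and MTHFD2, by about 0.2 to 0.3 on the log2 scale. By group means, however, PSAT1 was not higher in DHA + PRO than in PRO. No member passed the test, while PHGDH, PSAT1 and MTHFD2 passed it with the replicate number as a block. The test was edgeR's quasi-likelihood F test with Benjamini-Hochberg adjustment over all genes, and a gene counted as called where the adjusted p did not exceed 0.05 and its mean log2 CPM was above 0. It called 0 of the 10 members and 1.23% of all genes. It gave 5 members and 1175 of the 11893 genes an unadjusted p under 0.05. With the block it called 3 members, PHGDH (0.21, edgeR adjusted p = 0.0115), PSAT1 (0.24, adjusted p = 0.0163) and MTHFD2 (0.30, adjusted p = 0.0435), beside 3.09% of all genes. With the block but without replicate 1 or without replicate 3 it called 0 members, and without replicate 2 it called 3. Fitted differences without the block were above 0 for 9 of 10 members and for 6238 of the 11893 genes. Their median was 0.12 over the members and 0.007 over all genes. In RNA from whole cultures, fewer cells expressing a gene and less of its RNA per cell cannot be told apart.

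For PHGDH, the first enzyme of serine synthesis, the libraries without DHA at 24 h ran from 213 to 278 CPM with a median of 246, and those with DHA from 244 to 318 with a median of 293. The ranges overlapped, and PHGDH was higher with DHA in 8 of the 9 pairs of the same replicate number and the same other compound. Its fitted log2 difference was 0.21 (SE 0.058, 95% interval 0.090 to 0.33, adjusted p = 0.0858, edgeR quasi-likelihood test). PSAT1, the transaminase of the second step, ran from 274 to 401 CPM without DHA (median 310) and from 278 to 453 with it (median 386), higher in 7 of 9 pairs. Its difference was 0.24 (SE 0.075, interval 0.082 to 0.39, edgeR adjusted p = 0.167). Its group mean was 396.8 CPM with DHA against 317.3 in Ctrl, and 390.7 with DHA + PCA against 296 in PCA. In DHA + PRO, 386, 361 and 278 CPM (mean 341.8) stood against 401, 321 and 310 in PRO (mean 344.3). MTHFD2, the mitochondrial dehydrogenase and cyclohydrolase, ran from 102 to 151 CPM without DHA (median 130) and from 115 to 199 with it (median 159), higher in 8 of 9 pairs. Its difference of 0.30 was the largest of the 10 (SE 0.093, interval 0.11 to 0.49, edgeR adjusted p = 0.152). Its group means were 166.7 CPM with DHA against 135.9 in Ctrl and 163.6 with DHA + PCA against 118.3 in PCA. With DHA + PRO the mean of MTHFD2 was 145.2 CPM against 132.2 in PRO.

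The calls for these 3 genes depended on the settings. Without the filter on low counts the same test called all 3, with adjusted p of 0.0377 for PHGDH, 0.0219 for PSAT1 and 0.00588 for MTHFD2, beside 1.2% of all genes. DESeq2's Wald test called PHGDH alone (adjusted p = 0.0368). Without the deep library the differences were 0.21 for PHGDH, 0.22 for PSAT1 and 0.29 for MTHFD2. Within the earlier series of libraries they were 0.23, 0.27 and 0.32, and within the later one 0.17, 0.14 and 0.23. The summed RPKM of the markers of other cells, nearly all CD68 and ACTA2, ran from 45.1 to 68.1 without DHA and from 57.6 to 74.6 with it, and its part in these differences was not tested.

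Among the remaining members at 24 h, CBS and MTHFD1 were higher with DHA in all 9 pairs, with small differences. CBS ran from 67.6 to 86.6 CPM without DHA (median 74.6) and from 75.1 to 97.6 with it (median 84.2), a fitted log2 difference of 0.15 (interval 0.018 to 0.27, edgeR adjusted p = 0.389). Without the deep library the difference of CBS was 0.13 (edgeR adjusted p = 0.587). MTHFD1 ran from 127 to 156 CPM (median 140) and from 144 to 175 (median 153), a difference of 0.12 (interval 0.017 to 0.23, edgeR adjusted p = 0.377). It was 0.13 without the deep library (edgeR adjusted p = 0.409). SHMT2 differed by 0.11 and PSPH by 0.10, each with an interval that includes 0. The intervals of SHMT1 (-0.078 to 0.14), GLDC (-0.073 to 0.11) and GNMT (-0.37 to 0.18) bound what these data allow for the last 3 genes, and that of GNMT is wide.

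**Figure D2:**
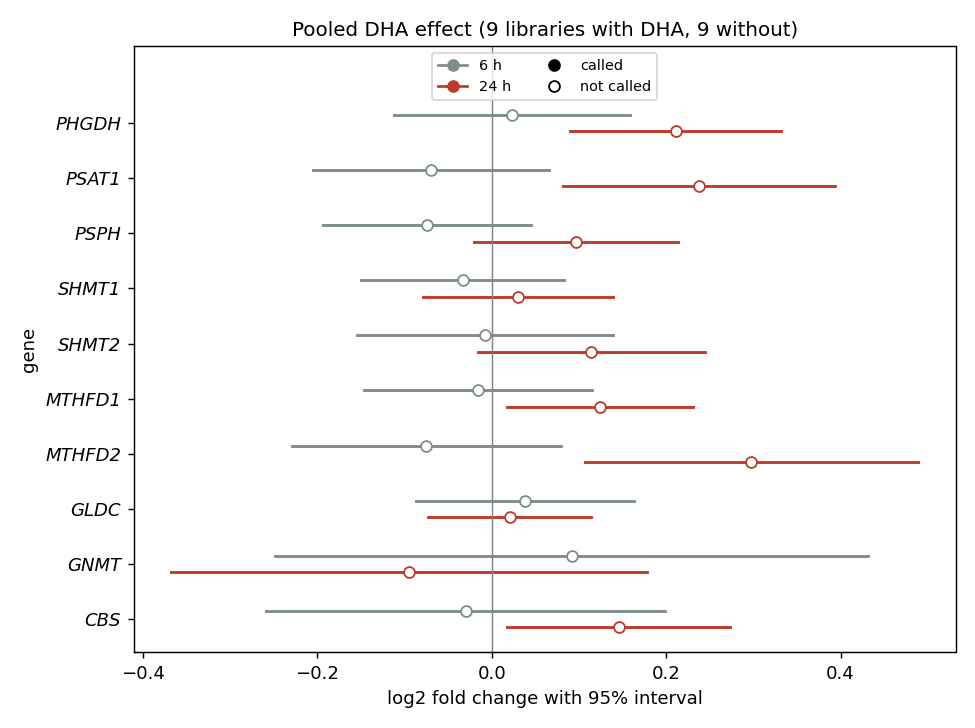
Fitted log2 fold change between 9 libraries with DHA and 9 without, for each gene at 6 h (grey) and 24 h (red). Lines are 95% intervals from edgeR without adjustment for the number of genes, and open points were not called. At 24 h, intervals of PHGDH, PSAT1, MTHFD1, MTHFD2 and CBS lie above 0, and at 6 h every interval includes 0.

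At 6 h the pooled DHA difference called 0 of 10 members by edgeR and 0 by DESeq2's Wald test, beside 0.202% of all genes, and 0 members had an unadjusted p under 0.05. All fitted values of the members lay between -0.07 (PSPH and MTHFD2) and 0.09 (GNMT). Of these 3 were above 0, beside 5955 of the 11872 genes. PSAT1 ran from 327 to 445 CPM without DHA (median 358) and from 318 to 414 with it (median 337). MTHFD2 ran from 121 to 181 (median 144) and from 124 to 167 (median 141). The highest library of both genes at 6 h was replicate 2 of PRO, and the groups with and without DHA overlapped over most of their range. Whether the effect of DHA changed from 6 h to 24 h was itself tested, and 0 of 10 members were called by edgeR, beside 0% of all genes, with 368 genes at an unadjusted p under 0.05. DESeq2's Wald test called 6 genes and 0 members. Its fitted size was 0.37 for MTHFD2 (interval 0.11 to 0.63), 0.30 for PSAT1 (0.085 to 0.51) and 0.18 for PHGDH, on the log2 scale.

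Each treatment was also compared with Ctrl, 3 libraries against 3. For DHA alone at 24 h, PSAT1 had 450, 341 and 399 CPM against 343, 298 and 311 in Ctrl, a fitted log2 difference of 0.32 (SE 0.13, edgeR adjusted p = 0.754). The lowest DHA library lay just under the highest Ctrl library. For PHGDH the values were 293, 254 and 318 with DHA and 256, 213 and 266 in Ctrl (0.23, adjusted p = 0.786, edgeR). No member was called, beside 0.193% of all genes.

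With DHA + PCA at 24 h, PHGDH had 305, 283 and 305 CPM, all above the 3 Ctrl libraries, a difference of 0.28 (SE 0.10, edgeR adjusted p = 0.500). PSAT1 differed by 0.30 (0.13) and CBS by 0.25 (0.11) from Ctrl, and 0 members were called, beside 0.286% of all genes. With DHA + PRO at 24 h the largest difference was in CBS, with 97.6, 94.7 and 76.6 CPM against 72.7, 67.6 and 74.6 in Ctrl. These groups did not overlap, and the fitted difference of 0.32 (SE 0.11) had an edgeR adjusted p of 0.344, the lowest of the 140 member tests over the 14 single comparisons. Without the deep library, which is the one at 94.7 CPM, it was 0.28 (edgeR adjusted p = 0.709). The largest member difference was then that of GNMT, at -0.42 (edgeR adjusted p = 0.861), which was -0.30 with all libraries. With all libraries PSAT1 differed from Ctrl by 0.11 (0.06 without the deep library), and 0 members were called, beside 0.395% of all genes.

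PRO alone and PCA alone called no gene with edgeR at either time, which is 0% of all genes, with 196 (PRO) and 86 (PCA) genes at an unadjusted p under 0.05 at 6 h and 716 and 454 at 24 h. DESeq2's Wald test called 1 gene with PRO at 24 h and 0 in the other 3, and 0 members in all 4. The largest member difference with either was PHGDH with PRO at 6 h, where 202, 188 and 231 CPM stood against 165, 173 and 190 in Ctrl, a log2 difference of 0.23. Its groups overlapped by a single library on each side. Adding PRO or PCA to DHA called 0 members and 0% of genes by edgeR at both times, with 168 and 151 genes at an unadjusted p under 0.05 at 6 h and 527 and 276 at 24 h, and DESeq2's Wald test called 8 genes and 0 members for DHA + PRO against DHA at 24 h and 0 genes in the other 3. The member with the largest such difference was GNMT, the glycine N-methyltransferase, at -0.34 between DHA + PRO (5.68, 7.69 and 7.28 CPM) and DHA (10.3, 6.81 and 9.98) at 24 h, and it was -0.46 without the deep library. At 6 h, DHA, DHA + PRO and DHA + PCA against Ctrl called 0 members each, beside 0.0168% of all genes in each, and 0 of the 70 member tests at 6 h had an unadjusted p under 0.05. These comparisons share the Ctrl or the DHA libraries.

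More members were called between the times than in any comparison of treatments, as were more of all genes. The share of members called was not above the share of all genes. In the mean of the 6 groups, 5 of 10 members were higher at 24 h than at 6 h and 0 were lower, beside 61% of all genes called, 3623 of them higher and 3731 lower. The median log2 change was 0.13 over the members and -0.008 over all genes. The 5 that rose were PHGDH and PSPH of serine synthesis, SHMT1, GNMT and CBS, while the remaining enzyme of serine synthesis, PSAT1, was not called, and neither were SHMT2, MTHFD1, MTHFD2 and GLDC. The time points also differ in how long the cells were without serum, and the summed RPKM of the hepatocyte markers was 20770 to 26490 at 6 h and 24110 to 29270 at 24 h. Its part in these changes was not tested.

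PHGDH ran from 165 to 231 CPM at 6 h (median 188) and from 213 to 318 at 24 h (median 261), and was higher at 24 h in 18 of 18 pairs of the same treatment and replicate number. It rose by 0.49 on the log2 scale (SE 0.044, edgeR adjusted p = 1.44e-11). CBS, the transsulfuration enzyme, ran from 36.1 to 78.5 CPM at 6 h (median 60.3) and from 67.6 to 97.6 at 24 h (median 77.4), higher in 17 of 18 pairs, and rose by 0.42 (SE 0.064, adjusted p = 9.11e-07). Its 6 h range was set at the low end by replicate 1 of DHA + PRO at 36.1 CPM, and without replicate 1 of all groups the rise was 0.31 and still called. GNMT ran from 4.01 to 8.45 CPM (median 5.87) and from 5.68 to 11.7 (median 8.92), higher in 15 of 18 pairs, and rose by 0.58 (SE 0.10, adjusted p = 1.39e-05).

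PSPH, the phosphatase that releases serine, ran from 65.0 to 83.5 CPM at 6 h (median 76.7) and from 75.3 to 107 at 24 h (median 87.7), and rose by 0.22 (SE 0.039, edgeR adjusted p = 8.10e-06). SHMT1, the cytosolic enzyme, ran from 75.5 to 87.9 CPM (median 80.7) and from 85.9 to 104 (median 92.6), and rose by 0.19 (SE 0.036, adjusted p = 3.22e-05). Both were higher in 17 of 18 pairs, and the ranges of both times overlapped. The rises differed in size between the series of libraries for CBS (0.59 in the earlier, 0.28 in the later) and GNMT (0.43 and 0.83), and less for PHGDH (0.55 and 0.43), PSPH (0.19 and 0.26) and SHMT1 (0.20 and 0.16).

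The members that were not called over time had narrow intervals. The log2 differences were -0.03 for PSAT1 (-0.14 to 0.073), 0.06 for SHMT2 (-0.035 to 0.16), -0.07 for MTHFD1 (-0.15 to 0.014), -0.02 for MTHFD2 (-0.15 to 0.11) and 0.03 for GLDC (-0.039 to 0.10). PSAT1 was higher at 24 h in 6 of 18 pairs and MTHFD2 in 7. Without replicate 1, MTHFD1 was called as lower at 24 h by 0.17 (log2 value -0.17, edgeR adjusted p = 0.000374). GLDC varied least, with group means from 43.0 to 46.9 RPKM.

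In Ctrl alone, PHGDH had 165, 173 and 190 CPM at 6 h and 256, 213 and 266 at 24 h without overlap, and rose by 0.48 (SE 0.11, edgeR adjusted p = 0.00124). GNMT had 4.25, 5.42 and 6.90 CPM at 6 h and 6.88, 10.2 and 8.89 at 24 h, which just overlapped, and rose by 0.68 (SE 0.26, adjusted p = 0.0480). These were 2 of 10 members, beside 26% of all genes. The call for GNMT did not hold without replicate 2 (0.54, edgeR adjusted p = 0.358) or without replicate 3 (0.82, edgeR adjusted p = 0.133). Nor did it hold without the filter on low counts (edgeR adjusted p = 0.0589) or with the deep library thinned (edgeR adjusted p = 0.0511). With the replicate block 3 members were called, beside 33.4% of all genes, PSPH being the third (0.24, edgeR adjusted p = 0.0439). Without replicate 1, MTHFD1 was called as lower at 24 h in Ctrl (log2 value -0.37, edgeR adjusted p = 0.00426).

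**Figure D3:**
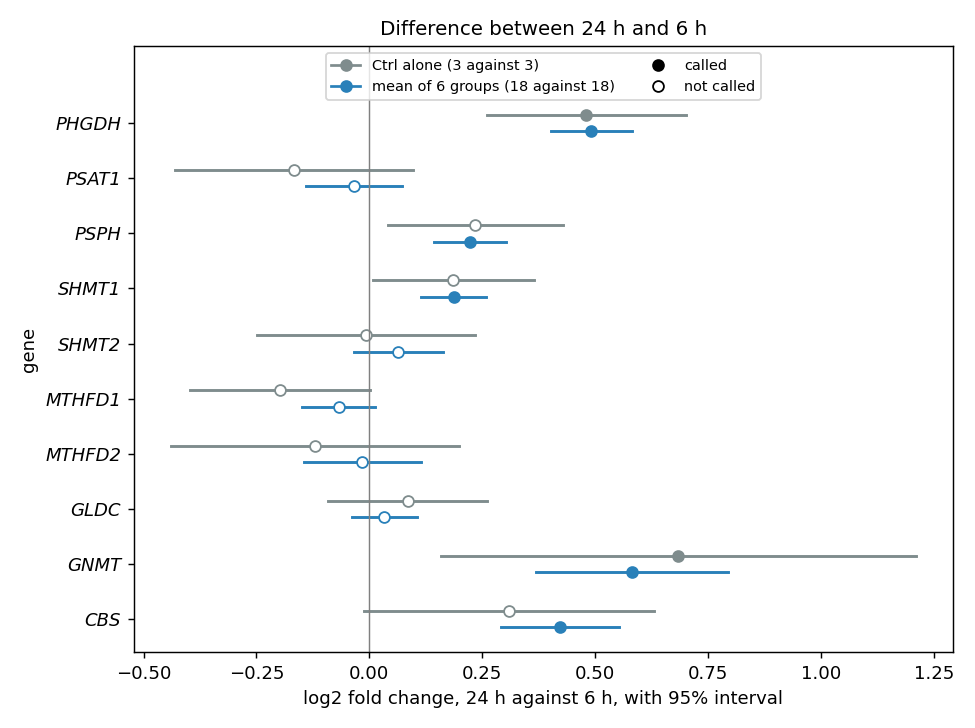
Log2 fold change between 24 h and 6 h for each gene in Ctrl alone (grey, 3 libraries against 3) and as the mean of the 6 groups (blue, 18 against 18). Lines are 95% intervals from edgeR without adjustment for the number of genes, filled points were called and open points were not. The blue points of PHGDH, PSPH, SHMT1, GNMT and CBS are filled and lie above 0.

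SHMT and MTHFD each come as a mitochondrial and a cytosolic enzyme, and the mitochondrial gene had the higher level per length in every library. The ratio of SHMT2 to SHMT1 in RPKM ran from 2.36 to 3.54 at 6 h (median 2.67) and from 2.14 to 3.18 at 24 h (median 2.51). That of MTHFD2 to MTHFD1 ran from 1.24 to 1.62 at 6 h (median 1.36) and from 1.13 to 1.90 at 24 h (median 1.44). The highest MTHFD2 to MTHFD1 ratios, 1.90, 1.87 and 1.84, stood in DHA and DHA + PCA libraries at 24 h, and the next, 1.67, in Ctrl at 24 h. Means at 24 h were 1.67 ± 0.34 (SD) in DHA, 1.59 ± 0.26 in DHA + PCA and 1.36 ± 0.20 in DHA + PRO. Without DHA they were 1.47 ± 0.17 in Ctrl, 1.37 ± 0.16 in PRO and 1.26 ± 0.16 in PCA. The mean of DHA + PRO thus lay below those of Ctrl and PRO. The libraries of these groups overlapped, and the ratios were not tested.

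**Figure D4:**
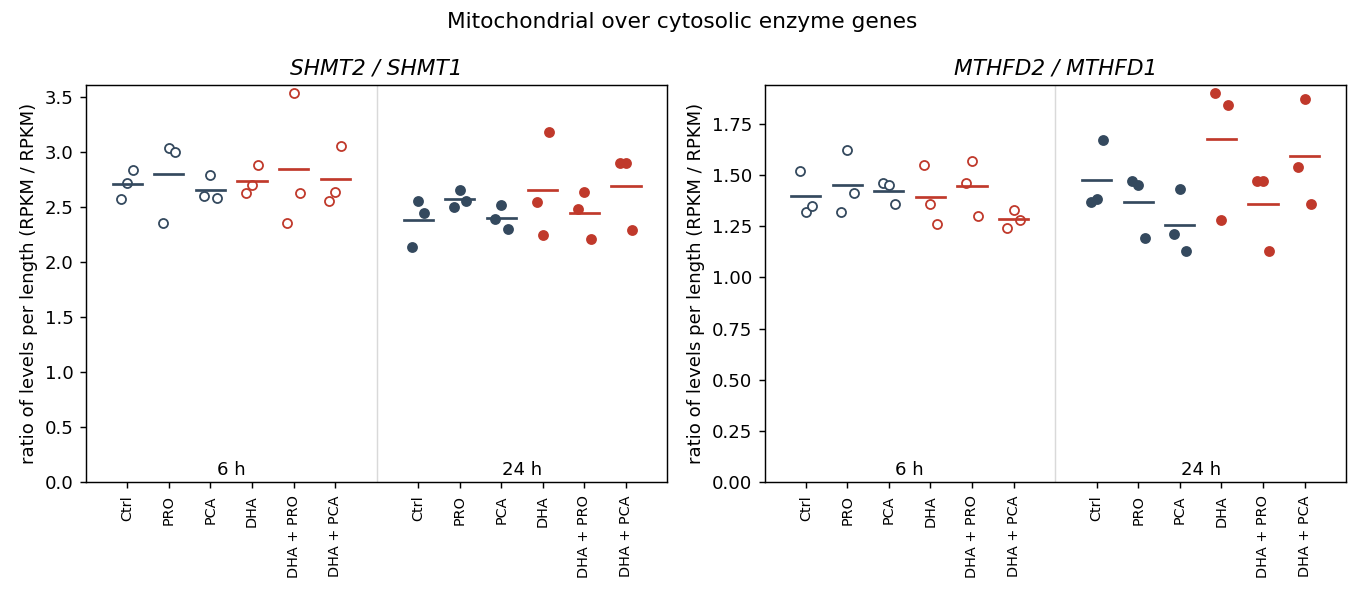
Ratio of the level per length (RPKM over RPKM, linear axis from 0) of the mitochondrial over the cytosolic gene in each library, for SHMT2 over SHMT1 and MTHFD2 over MTHFD1. Points are libraries, bars are means of 3, red marks groups with DHA, and filled points mark 24 h. Every ratio is above 1, and the MTHFD2 over MTHFD1 ratios spread more at 24 h (1.13 to 1.90) than at 6 h (1.24 to 1.62).

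The other genes of the pathway were taken as 50 genes in 3 lists, of which 48 were tested. The pooled DHA comparison at 24 h called 1 as higher and 1 as lower, beside 1.23% of all genes, and with the replicate block 6 as higher and 2 as lower, beside 3.09%. BHMT, which remakes methionine from homocysteine with betaine, rose by 0.56 on the log2 scale (SE 0.10, edgeR adjusted p = 0.00184). The 8 genes of methionine and transsulfuration were all above 0, beside 6238 of the 11893 genes. Medians were 0.18 over these 8, 0.06 over the 19 of folate and 0.02 over the 21 tested of glycine and serine, beside 0.007 over all genes. At 6 h and in the single comparisons with DHA, PRO or PCA, 0 of the 48 were called without the block. With the block, DHA + PCA against Ctrl at 24 h called 1 as higher and 1 as lower, beside 1.09% of all genes.

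Over time, the mean of the 6 groups called 25 of the 48 as higher at 24 h and 7 as lower, beside 61% of all genes. In the glycine and serine list 14 of 21 rose and 3 fell, and the largest were GATM, the first enzyme of creatine synthesis (1.64, SE 0.14), AGXT, the peroxisomal alanine-glyoxylate aminotransferase (1.47, SE 0.094), DMGDH (0.98), the mitochondrial carrier SFXN3 (0.90) and the serine racemase SRR (0.85), on the log2 scale. In the folate list 8 of 19 rose and 3 fell, led by the mitochondrial ALDH1L2 (0.99), with FTCD (0.72) and ALDH1L1 (0.54), while GGH fell by 0.58. In the methionine list 3 of 8 rose, BHMT (1.26), MAT1A (0.76) and MAT2A (0.37), and MAT2B fell by 0.30. BHMT was thus higher both with time and with DHA at 24 h. All of these differences between the times had an edgeR adjusted p of 7.31e-06 or less.

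ATF4, the transcription factor of the amino acid response, is known to induce PHGDH, PSAT1, SHMT2 and MTHFD2, so a list of ATF4 and 9 of its other targets was read beside the members. Of the 9 tested, 0 were called by the pooled DHA comparison at 24 h, beside 1.23% of all genes. Above 0 were 8 of the 9, beside 6238 of the 11893 genes, and the median log2 difference of the 9 was 0.19. With the replicate block 2 were called as higher and 1 as lower, beside 3.09% of all genes. ATF4 itself differed by 0.04. Over time 7 of 9 rose and 1 fell, beside 61% of all genes called, led by ATF3 (0.94), DDIT4 (0.92) and TRIB3 (0.66), with ATF4 at 0.54 and ASNS, the asparagine synthetase, at 0.55. PSAT1 (-0.03), SHMT2 (0.06) and MTHFD2 (-0.02) were not called in the same comparison, and PHGDH rose.

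Likeness between members was described by Pearson's r over the 12 group means of log2 CPM. PSAT1 and MTHFD2 followed each other (r = 0.95 over 12 groups, 0.93 over the 6 groups at 6 h and 0.95 over the 6 at 24 h), and PSAT1 followed SHMT2 at 24 h (0.97). PHGDH followed CBS (0.94), SHMT1 (0.91) and PSPH (0.90) over the 12 groups, and less within a time (0.55, 0.25 and 0.68 at 24 h), so the larger values rest on the difference between the times. PHGDH and PSAT1, which act in consecutive steps, had an r of 0.10 over the 12 groups and 0.64 and 0.75 within 6 h and 24 h. The points share the libraries and their scaling.

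For each member the 3 genes with the highest r over the 12 group means were also found. They were MTHFD2, CARS (0.92) and NIFK (0.88) for PSAT1, and PSAT1, CARS (0.90) and SLC4A5 (0.86) for MTHFD2, where SLC4A5 is the gene whose exons overlap those of MTHFD2. For SHMT2 they were the cystine transporter SLC7A11 (0.94), YARS (0.90) and MAGOHB (0.89), and for PHGDH NXT1 (0.99), EEF2KMT (0.98) and SLC25A11 (0.98). PSPH stood nearest to RAD18 (0.95), CGREF1 (0.95) and LACTBL1 (0.94), SHMT1 to PGAM1 (0.99), ARAP1 (0.98) and PNP (0.98), and MTHFD1 to RANBP1 (0.90), MARS2 (0.89) and GEMIN5 (0.88). GLDC stood nearest to ACVR1B (0.93), CCDC94 (0.91) and FAM53A (0.87), GNMT to SMPD1 (0.97), ENOSF1 (0.97) and LRRC56 (0.97), and CBS to PSPC1 (0.98), NMRAL1 (0.98) and NIT1 (0.98). The 12 points share their libraries and the difference between the times.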

How the data were processed

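Count data were analysed for 36 HepG2 libraries. The authors pooled RNA of replicate wells within an experiment. They made libraries with the TruSeq RNA v2 kit, used STAR for alignment to hg19 (GRCh37) and obtained counts through iRNA-seq. Tool versions are not given in the sources used here. The deposited values are raw counts per RefSeq gene without normalization, and the deposited table also holds positions and the counted length in bases (an other unit, used for RPKM only). Its starts count from 0, and 1 was added.

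Counts were tested in R 4.3.3 with edgeR 4.0.16 (filterByExpr, TMM, quasi-likelihood F test, Benjamini-Hochberg adjustment), in a fit of 18 libraries per time and a joint fit of 36 for differences between times. A gene counted as called where the adjusted p did not exceed 0.05 and its mean log2 CPM was above 0. The standard error is the size of the log2 fold change divided by the square root of F. CPM and RPKM use TMM-scaled library sizes over all 36 libraries. Total counts ran from 4659744 to 42326734. Counts are reads and not molecules. The script was tested on simulated data.

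Groups and replicate numbers were taken from the labels and doses from the study's methods, and no library was left out. Replicates of 1 group are independent cultures, so p-values without the block measure the spread between libraries within groups. That fit also takes libraries of different groups as independent. The deposited table numbers the pooled wells alike in every group for a given replicate number, so the number was also fitted as a block. Whether treatments of 1 number shared a culture is not stated in the sources used here. Residuals of samples with the same number had correlations from -0.12 to 0.46 at 6 h (36 of 45 over 0.1) and from -0.18 to 0.34 at 24 h (34 of 45), and 16 and 17 of 18 samples correlated best with their own number. Of 630 pairs of libraries none was a duplicate (lowest chi-square per degree of freedom 1.93). Alternatives were DESeq2 1.42.0 size factors and Wald test, upper quartile scaling, no filter, no expression limit, the replicate number or the library series as a factor, fits restricted to the compared groups, and leaving out replicates. Chosen after seeing the data were thinning or leaving out the deep library, a replicate block within each time, and leaving out replicates with the block. The members and lists were chosen with earlier results of these data known. Besides the members, the genes named are called genes of the pathway and ATF4 lists, at most 5 per list and comparison with the largest change, and the 3 genes most correlated with each member. A gene of these lists is not reported here by name, and the counts of the lists include it. Promoters were taken from RefSeq (GRCh38.p14) and exon overlaps from GENCODE v44lift37.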

Additional observations from a re-analysis of the deposited data

Results flagged for a closer look

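In the joint edgeR fit, the DHA effect of 3 members differed between 24 h and 6 h at an unadjusted p under 0.05. The same held for 368 of the 12046 genes, and for 0 members after adjustment over all genes. The difference, 24 h minus 6 h on the log2 scale, was 0.30 for PSAT1 (edgeR adjusted p = 1.00), 0.37 for MTHFD2 and 0.16 for PSPH by edgeR's quasi-likelihood test. All 3 had a value below 0 at 6 h (-0.07 each) and above 0 at 24 h (0.24, 0.30 and 0.10). Over the 12 alternatives the difference stayed above 0, from 0.19 to 0.39 for PSAT1, 0.33 to 0.39 for MTHFD2 and 0.12 to 0.19 for PSPH.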

How the results depend on the processing

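Over 2790 values of single members under the alternatives, 2764 kept their direction where called and their side of the threshold. Another 19 passed it newly, 6 no longer passed it, and 1 reversed. The reversal came from the fit with a block within each time, whose limit is given below. The sign of the fitted value changed in 165 of the 2790. Most member tests were not called in the main fit, so keeping their side of the threshold says little on their direction. Of the 10 members called for pooled DHA at 24 h, the main fit gave 0, no filter on low counts 3, DESeq2's Wald test 1, and leaving out 1 replicate 0 to 0. For 24 h against 6 h in Ctrl the main fit gave 2, no filter 1, the deep library thinned 1, and leaving out 1 replicate 1 to 3. For the mean of 6 groups it gave 5, and 5 to 6 without 1 replicate. No treatment comparison at 6 h and no single one at 24 h called a member under any alternative. Of all genes, pooled DHA at 24 h called 146 in the main fit and 222 by the Wald test. The cause was not tested.

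With the replicate block, pooled DHA at 24 h called 3 members (PHGDH, PSAT1 and MTHFD2) and 367 of all genes (3.09%). With the block it called 2 members with the deep library also thinned, and 0 without replicate 1, 3 without replicate 2 and 0 without replicate 3. The block also added PSPH for 24 h against 6 h in Ctrl (0.24, edgeR adjusted p = 0.0439), and it changed no other call of a member. A block within each time was also fitted. Its time difference set the 24 h groups at replicate 1 against the 6 h groups at replicate 3. That fit therefore does not measure the time difference over all replicates. In it PSAT1 reversed to a called rise of 0.17, and PSPH was not called (0.14). In Ctrl it added SHMT1 (0.24) and lost GNMT (0.55). These changes were not read as results on time.

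Depth limits GNMT most, with 28 counts in its lowest library.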
